A study of Mus musculus with 18 samples.

Results

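Cytosolic ribosomal protein genes encode the proteins of the large and small subunits of the cytosolic ribosome. They were taken by symbol, as every listed gene named Rpl or Rps followed by a number together with Rplp0, Rplp1, Rplp2 and Rpsa, without -ps pseudogenes, S6 kinases and the pair Rpl3 and Rpl3l. The symbol Rps19bp1, which names a binding protein, was also left out. This rule gave 82 of the 12048 genes listed in the authors' files. They were 41 large subunit genes, 3 stalk genes of the large subunit, 31 small subunit genes and 7 further copies. The copies were the paralogs Rps27l, Rpl22l1, Rpl36al, Rps27rt, Rps4l and Rpl7l1, and Rps3a2. All 82 carried counts in every library, the lowest being 19 in 1 library. Rpl24, Rpl10l and Rpl39l were not analysed here.

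RNA was sequenced from cardiomyocytes of Mlc2vcre:R26REYFP mouse hearts, in which Cre expressed from the ventricular myosin light chain gene Mlc2v (Myl2) turns on a yellow fluorescent reporter in ventricular cardiomyocytes. Cells were sorted by flow cytometry into those with 1 nucleus and those with 2 nuclei. Both classes were taken at E18.5 (before birth), at P7 (postnatal day 7) and from adults, with 3 libraries in each of the 6 groups and 18 in all. Every group carried the same Cre and reporter alleles, and no treatment was given. The series asked how the classes differ in their competence to proliferate. Nothing in the labels ties the libraries of a group to separate animals, and the spread behind each p-value is that between these libraries, which may be technical. The labels do not say how nuclear number was told apart.

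A ribosome holds 1 copy of nearly every ribosomal protein, so their genes are transcribed at matched rates and the proteins are assembled with ribosomal RNA in the nucleolus. Their messages begin with a cytosine and a run of pyrimidines, the TOP motif, through which mTOR and the RNA-binding protein Larp1 govern their translation, while Myc proteins promote their transcription. Cardiomyocytes largely stop dividing in the first days after birth, when many become binucleated, and grow afterwards by enlargement. RNA levels, which were measured here, do not show how strongly these messages were translated.

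The recovered whole counts summed to between 14833334 and 22690952 per library. The 10 cardiomyocyte markers together made up 35228 to 53174 CPM in every library, and none was at 0. The lowest total and the lowest marker value were both those of E18.5 binucleated replicate 1. All other libraries lay between 42768 and 53174 CPM. E18.5 binucleated replicate 1 stood apart from all other libraries, and values are therefore given both with it (18 libraries) and without it (17 libraries). Fibroblast markers (9 of 10 listed) were higher in all 3 E18.5 binucleated libraries, at 362 to 1099 CPM against 75.1 to 130 in E18.5 mononucleated libraries and 49.8 to 190 at later ages. Endothelial markers (10 of 10 listed) followed the same order at E18.5, at 60.9 to 132 against 17.3 to 38.3 CPM. Leukocyte markers (6 of 10 listed) stood at 15.2 to 45.4 against 2.73 to 3.59 CPM, with C1qb, C1qc and Laptm5 at 0 in 6 to 8 of the 18 libraries. Erythroid markers (5 of 8 listed) stood at 118 to 187 against 42.8 to 77.6 CPM. Pericyte and smooth muscle markers (8 of 9 listed) stood at 1545 to 1786 against 1636 to 1732 CPM. Acta2 and Abcc9 had the highest counts of this last list, up to 29137 and 14892 in a library, where the others reached at most 2027. Pdgfrb of the same list was higher in E18.5 binucleated cells by 7.50 ± 0.90 (log2, SE). Its adjusted p with limma was 0.000652 over 18 libraries, and it was at 0 in 3 of them. The part of these cells in the E18.5 differences below was not tested. In bulk samples like these, fewer cells of a type and less RNA per cell cannot be told apart.

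Ribosomal protein genes took a smaller share of the counts at each later age. The 82 members together held 1.12% to 1.23% of the counts in the 3 E18.5 mononucleated libraries. In E18.5 binucleated cells the shares were 2.78%, 1.15% and 1.14%, so replicates 2 and 3 lay within the mononucleated range and replicate 1 far above it. The P7 shares lay between 0.782% and 0.952% for mononucleated and between 0.789% and 0.900% for binucleated cells. Adult shares lay between 0.546% and 0.703% and between 0.588% and 0.649%. The ranges of the 3 ages did not overlap within either class, and both classes overlapped at P7 and in the adult. When counts were scaled by the total of the genes outside the list, the typical gene was also lower in the adult. With 17 libraries the median log2 difference of all genes from E18.5 to the adult was then -0.41 in mononucleated and -0.50 in binucleated cells. Those of the members were -1.0 and -0.97.

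**Figure D1:**
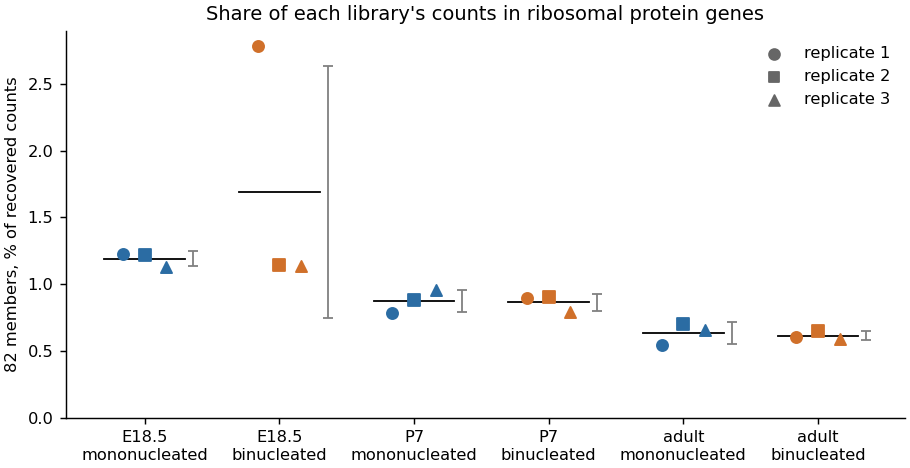
Share of the recovered counts of each library held by the 82 ribosomal protein genes, in percent, by group. Points are libraries, black lines are means and grey bars are 1 SD (n = 3). The share steps down from about 1.12% to 1.23% at E18.5 to 0.546% to 0.703% in the adult, and E18.5 binucleated replicate 1 stands alone at 2.78%.

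Per kilobase of transcript, the mean level over the 18 libraries ranged from 93.2 normalised read counts for Rps27rt to 10771 for Rplp0, and the middle 50% of the members lay between 1754 and 4193. A normalised read count is the recovered count after the authors' scaling between libraries. The 3 members with the highest recovered counts were Rplp0, Rpl4 and Rps2, with means of 9199, 6918 and 5674 per library. Those with the lowest were Rps27rt, Rps3a2 and Rpl23a, with 34.8, 221 and 384. Members whose transcripts also exist as near-identical copies elsewhere in the genome can share reads with them, and the sources used here do not say how such reads were counted.

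Because ribosomal protein genes are known to share promoter features, and the members moved together with age as described further on, their start regions were searched for shared letters. RefSeq windows of 300 bases (GRCm38.p6, 250 before to 50 after the annotated start) were found for 61 of the 82 members by symbol. A C followed by at least 6 pyrimidines on the sense strand, within 20 bases of the start, was present in 55.7% of these windows and in 21.4% of all 27025 windows. The other motifs were searched on both strands. TTCCGG, the core of the sequence bound by Ets factors such as Gabpa, occurred in 57.4% against 16.7%. CTTTCC occurred in 52.5% against 29.3%, and CTCTTTC in 29.5% against 9.28%; both can overlap each other and a pyrimidine run. CACGTG, the E-box bound by Myc, occurred in 9.84% against 8.09%, and TATAAA, the TATA box, in 11.5% against 15.7%. A match describes the letters in the window and is not a bound site. The windows are of another build than the counts and were matched by symbol only.

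Windows of 70 bases (50 before the start and 20 from it on) are shown for members on which the age results turned. Capitals mark each C followed by at least 6 pyrimidines on the sense strand within 20 bases of the start. Each TTCCGG of either strand is also in capitals, anywhere in the window. Rps27 is included because both kinds of capitals meet in it, and Rpl12 and Rps16 because they fell from E18.5 to the adult in both classes and hold no capitals.
Rpl4, chr9:64173337-64173406, plus strand: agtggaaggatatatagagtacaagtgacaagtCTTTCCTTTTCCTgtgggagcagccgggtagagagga
Rpl15, chr14:18270967-18271036, minus strand: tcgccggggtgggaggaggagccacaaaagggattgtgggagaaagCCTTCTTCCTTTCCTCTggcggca
Rpl39, chrX:37085203-37085272, minus strand: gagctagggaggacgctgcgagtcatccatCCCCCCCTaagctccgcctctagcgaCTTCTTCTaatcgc
Rps27, chr3:90213629-90213698, minus strand: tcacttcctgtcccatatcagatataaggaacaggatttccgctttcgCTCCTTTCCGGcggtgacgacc
Rplp2, chr7:141447601-141447670, plus strand: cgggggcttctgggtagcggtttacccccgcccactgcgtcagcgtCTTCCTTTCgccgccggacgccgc
Rplp0, chr5:115559417-115559486, plus strand: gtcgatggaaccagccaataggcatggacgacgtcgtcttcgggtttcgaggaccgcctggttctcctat
Rpl12, chr2:32961662-32961731, plus strand: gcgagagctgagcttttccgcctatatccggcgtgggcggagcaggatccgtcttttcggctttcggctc
Rps16, chr7:28350639-28350708, plus strand: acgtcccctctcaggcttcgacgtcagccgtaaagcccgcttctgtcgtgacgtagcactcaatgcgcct
Rpl4, Rpl15, Rpl39, Rps27 and Rplp2 hold a marked run within these 70 bases, which in Rpl4 lies wholly before the start. Rplp0, Rpl12 and Rps16 hold no marked letters. Rpl12 and Rps16 do each hold a C followed by at least 6 pyrimidines further than 20 bases before the start, which is not marked. From E18.5 to the adult in mononucleated cells, Rpl12 changed by -1.15 ± 0.32 (log2, SE) with an adjusted p of 0.00638, and Rps16 by -1.09 ± 0.30 (log2, SE) with 0.00611. Rpl4 and Rpl15, which hold capitals, fell in the same comparison, as described further on.

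The excess of E18.5 binucleated replicate 1 covered all the members. All 82 were higher in it than in the mean of replicates 2 and 3, and 78 of them by more than 1 on the log2 scale, with a median of 1.54. The smallest differences were those of Rpl7l1 (0.32), Rpl4 (0.53) and Rps4l (0.86), and the largest those of Rps21 (2.11), Rps27rt (2.11) and Rps12 (2.04). Rps21 had normalised read counts of 2296 in this library and of 481 and 585 in the other two. Other short transcripts were also higher there. Genes outside the list with transcripts under 750 nt had a median difference of 0.61, those of 1000 to 1500 nt 0.47 and those of 4000 nt or more -0.64. The members' transcripts had a median length of 713 nt, and 67 of them were under 1000 nt. At the same lengths the members still stood higher, with medians of 1.63 under 750 nt and 1.25 from 1000 to 1500 nt. Mitochondrial ribosomal protein genes, which build the separate ribosome of the mitochondrion, had a median of 1.04. The difference of 4.41% of the other genes was above the members' median.

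**Figure D2:**
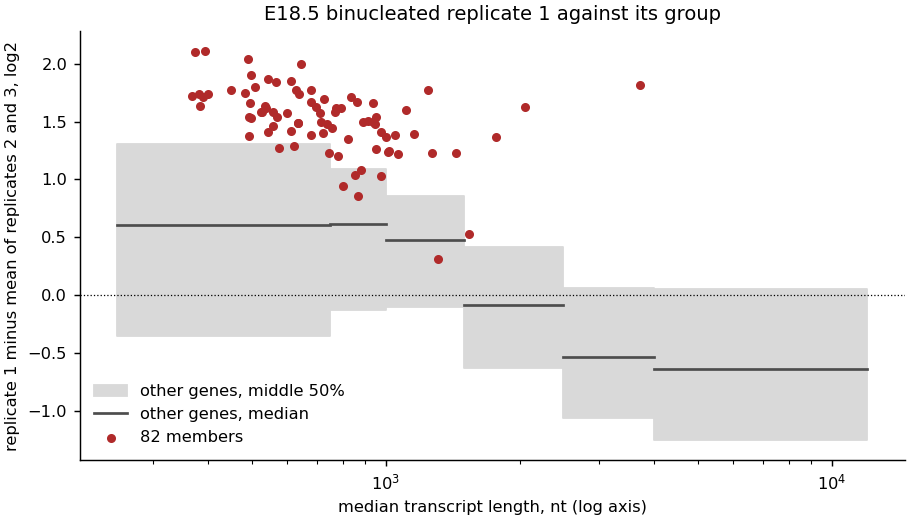
Difference between E18.5 binucleated replicate 1 and the mean of replicates 2 and 3 of its group (log2) against median transcript length in nt on a log axis. Red points are the 82 members; grey bands and lines are the middle 50% and the median of all other genes in length bins, the outermost of which are open-ended. Most members lie above the band of other genes of their length, and the other genes fall from 0.61 in the shortest bin to -0.64 in the longest.

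This library also set much of the spread. The median SD of a member within the E18.5 binucleated group was 0.89 on the log2 scale with it and 0.05 between the other two libraries. It was 0.06 in E18.5 mononucleated, 0.20 and 0.13 in P7 mononucleated and binucleated, and 0.23 and 0.10 in adult mononucleated and binucleated libraries. The model pools the spread of the 6 groups, so leaving out this library also lowered the error of comparisons that do not contain it.

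Between mononucleated and binucleated cells, no ribosomal protein gene passed the test at any age. The comparison asks whether classes that may differ in proliferative competence carry different levels of these messages at the same age. With limma over all 12048 genes and a threshold of 0.05 on the adjusted p, 0 of 82 were called at each of the 3 ages, where 0.805% of all genes were called at E18.5, 2.12% at P7 and 0.0913% among adults. With limma, 0 members had an unadjusted p under 0.05 with 18 libraries, where 13.9%, 10% and 2.5% of all genes did, and voom weights also called 0. In 0 members did the 3 values of one class all lie beyond those of the other, as they did in 14%, 24.5% and 6.25% of all genes. Without E18.5 binucleated replicate 1, limma called 0 members where it called 1.14%, 4.76% and 0.191% of all genes, and 0, 1 and 0 members had an unadjusted p under 0.05, where 9.85%, 17% and 3.66% of all genes did. Library weights, which trust each library by its spread, called 1 member at P7 and 0 at the other ages, where they called 11.6% of all genes at P7, 2.81% at E18.5 and 0.432% among adults.

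At E18.5 the sign of the class difference rested on 1 library. The median difference of binucleated from mononucleated cells was 0.40 with 81 of 82 members above 0, against -0.01 over all genes. Without replicate 1 it was -0.11 with 4 members above 0, against -0.02 over all genes. The largest member difference moved from Rps12 at 0.72 to Rpl22l1 at 0.08, and the lowest from Rpl7l1 at -0.01 to Rps3a2 at -0.31. Normalised read counts of Rps12, a small subunit protein, were 562, 628 and 540 in mononucleated libraries and 2435, 605 and 577 in binucleated ones, so 1 library was high and the other two lay inside the mononucleated range.

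At P7 the median class difference was 0.09, with 74 of 82 members above 0 and a median of 0.02 over all genes. When the counts were scaled instead by the total of the genes outside the list, 29 members lay above 0, so this sign depends on the scaling. The largest difference was that of Rps27l, a paralog of Rps27 that p53 is known to induce. Mononucleated libraries held 2416, 2732 and 3161 normalised read counts of it, and binucleated ones 3599, 3494 and 3099. It was 0.30 ± 0.28 (log2, SE) with an adjusted p of 0.922, and 0.148 without E18.5 binucleated replicate 1. Mononucleated replicate 3 lay above binucleated replicate 3, so the classes overlapped. Leukocyte markers stood at 20.2, 15.95 and 27.0 CPM in the mononucleated and 2.34 to 4.68 in the binucleated libraries of this age, and fibroblast markers at 77.8 to 190 and 49.8 to 64.0. The only leukocyte marker called between the classes with 18 libraries was Lyz2, at -2.83 ± 0.43 (log2, SE) with an adjusted p of 0.00116. Lyz2 reached 736 counts in a library and the other leukocyte markers at most 114. The only fibroblast marker called was Fbln1, at -1.52 ± 0.31 (log2, SE) with 0.0141. The part of other cells in these differences was not tested. In the adult the median was -0.01 with 36 members above 0, and single members ran from Rpl26 at -0.23 to Rps3a2 at 0.12.

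No change of the class difference with age passed the test. The interaction of class and age called 0 members between E18.5 and P7 and 0 between P7 and the adult, where 2.33% and 0.208% of all genes were called. With limma, 0 members had an unadjusted p under 0.05 in either interaction with 18 libraries, where 14.7% and 4.71% of all genes did, and voom and library weights called 0. With 17 libraries limma called 0 where it called 4.71% and 0.847% of all genes, and 1 member in each had an unadjusted p under 0.05, where 18.3% and 7.96% of all genes did. The median interaction from E18.5 to P7 was -0.31 with all libraries and 0.19 without E18.5 binucleated replicate 1.

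With age, most ribosomal protein genes were lower in both classes. The step from E18.5 to P7 had a median member difference of -0.39 in mononucleated cells, with 78 of 82 members below 0 and a median of 0.01 over all genes. In this step 2 members fell past the threshold with 18 libraries, Rpl4 and Rpl7l1, and none rose, where 7.84% of all genes fell and 10.7% rose. Without E18.5 binucleated replicate 1, which is no part of this comparison, the same differences had smaller errors and 47 members fell and none rose, where 14.6% and 17.8% of all genes did. Both earlier calls were among the 47. Leaving out E18.5 mononucleated replicate 2 or P7 mononucleated replicate 2 instead left 1 call. For such fits without a library other than E18.5 binucleated replicate 1, here and below, the shares of all genes are not given. Single members ran from Rpl22l1 at -0.72 to Rps3a2 at 0.20. In 59 members all 3 P7 values lay below all 3 E18.5 values, as in 22.7% of all genes.

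Rpl4 is a large subunit protein that lines the exit tunnel for the nascent chain. Its normalised read counts were 8749, 8832 and 8288 in E18.5 mononucleated libraries, 5052, 5750 and 6124 at P7 and 4783, 5673 and 5319 in the adult. The E18.5 values all lay above the later ones, and the P7 and adult ranges overlapped. From E18.5 to P7 it changed by -0.62 ± 0.13 (log2, SE) with an adjusted p of 0.00308. Rpl7l1, a paralog of Rpl7, changed by -0.45 ± 0.12 (log2, SE) with an adjusted p of 0.0149, from 2535, 2823 and 2470 to 1899, 1844 and 1977 normalised read counts. Its parent gene Rpl7 had a difference of -0.39 ± 0.26 (log2, SE), with an adjusted p of 0.34 with 18 libraries and 0.0135 with 17.

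In binucleated cells the step from E18.5 to P7 depended strongly on the outlying library. With it, the median was -0.70, 33 members fell and none rose, where 17.7% of all genes fell and 18.2% rose. Without it, the median was -0.19 and 17 members fell, near the 20.1% of all genes that did, and all 17 were among the 33. The count was 64 and 60 without E18.5 binucleated replicate 2 or 3, and 13, 17 and 6 without P7 binucleated replicate 1, 2 or 3. The shares of all genes in these fits are not given, so the counts show only that the calls depended on single libraries. Single members ran from Rpl34 at -1.14 to Rps3a2 at 0.11, and from -0.71 to 0.65 in the same 2 genes without that library. In 48 members the P7 values lay below all 3 E18.5 values, as in 21.4% of all genes. The members with the smallest adjusted p were Rpl4, Rpl15, Rpl10a, Rps3a1 and Rpl13, and these 5 also fell without the outlying library.

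Rpl4 in binucleated libraries had normalised read counts of 11878, 8585 and 7869 at E18.5, 5974, 6204 and 6043 at P7 and 5072, 4820 and 4677 in the adult, and the 3 ages did not overlap. It changed by -0.61 ± 0.13 (log2, SE) from E18.5 to P7 with an adjusted p of 0.00171, and by -0.44 ± 0.09 (log2, SE) with 0.00102 without the outlying library. For Rpl15, another large subunit protein, the changes were -0.79 ± 0.20 (log2, SE) and -0.47 ± 0.12 (log2, SE), with adjusted p of 0.00523 and 0.00411. Rpl10a, the protein of the L1 stalk where spent tRNA leaves, changed by -1.09 ± 0.29 (log2, SE) and -0.59 ± 0.16 (log2, SE), with adjusted p of 0.0083 and 0.00751.

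3 members passed the test in the other direction once the outlying library was left out, where 21.7% of all genes did. Rps27l was then higher at P7 by 0.42 ± 0.12 (log2, SE), with an adjusted p of 0.0121. Rplp1 of the stalk was higher by 0.33 ± 0.13 (log2, SE), with 0.0467, and Rps29 by 0.35 ± 0.13 (log2, SE), with 0.0438. Rps29, which was named after its values were seen, is a zinc-binding small subunit protein. With 18 libraries the same differences were -0.09, -0.31 and -0.22, and none was called. In mononucleated cells they were 0.06, 0.02 and 0.06, with adjusted p of 0.718, 0.916 and 0.719 over 17 libraries.

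From P7 to the adult, 68 of 82 members were lower in mononucleated and 78 in binucleated cells. The median was -0.23 in mononucleated and -0.35 in binucleated cells, against -0.01 and -0.03 over all genes. With 18 libraries 4 members fell in each class and none rose. Of all genes, 22.3% fell and 19.1% rose in mononucleated, and 19.7% fell and 17.3% rose in binucleated cells. With 17 libraries 30 and 43 fell, where 27.9% and 26.2% of all genes did, and in each class the earlier 4 were among them. Without another single library the mononucleated count was 1 to 5, with 1 call without P7 mononucleated replicate 2 or adult mononucleated replicate 1 or 3 and 2 without P7 mononucleated replicate 3. The binucleated count was 1 to 6. In 17 members the adult mononucleated values lay below all P7 values, where they did in 30.2% of all genes, and in 53 members the binucleated values did, against 31.5%. The summed markers of other cells also differed between these ages: endothelial markers lay between 10.7 and 27.2 CPM at P7 and between 73.4 and 99.3 in the adult. Pericyte and smooth muscle markers lay between 1118 and 1309.8 CPM at P7 and between 671 and 948 in the adult. This sum rests largely on Acta2 and Abcc9, with up to 29137 and 14892 counts in a library, where the others reached at most 2027. It is therefore not a measure of pericytes and smooth muscle cells as such. Single markers of this list went both ways. In mononucleated cells Rgs5 changed by 4.53 ± 0.93 (log2, SE) and Kcnj8 by 3.83 ± 0.93 (log2, SE). Cspg4 changed by -2.33 ± 0.29 (log2, SE) and Acta2 by -1.44 ± 0.20 (log2, SE). Each was called with 18 libraries, and Rgs5 and Kcnj8 had counts as low as 1. Erythroid markers lay between 5.12 and 27.7 CPM at P7 and at 9.57 or less in the adult, and Hba-a1, Hba-a2 and Hbb-bs were each at 0 in 2 of the 18 libraries. Their part in the age differences was not tested.

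Rps4l, an autosomal gene similar to Rps4x, had the largest decrease of the list. Its normalised read counts in mononucleated libraries were 1594, 1982 and 1669 at E18.5, 1770, 1197 and 2219 at P7 and 626, 493 and 454 in the adult. In binucleated libraries they were 3274, 1721 and 1888, 1949, 1249 and 1967 and 614, 462 and 320. All 6 adult values lay below all values of the younger ages, which overlapped each other. From P7 to the adult it changed by -1.69 ± 0.29 (log2, SE) in mononucleated and -1.91 ± 0.29 (log2, SE) in binucleated cells, with adjusted p of 0.000173 and 6.47e-05.

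Rps4x, the X-linked S4 gene, was also lower in the adult. Its normalised read counts were 4376, 3821 and 3367 in E18.5 mononucleated, 2571, 2886 and 2996 in P7 mononucleated and 1559, 2133 and 2015 in adult mononucleated libraries, and the ages did not overlap. It changed by -0.58 ± 0.27 (log2, SE) from P7 to the adult in mononucleated and by -0.70 ± 0.27 (log2, SE) in binucleated cells, with adjusted p of 0.0964 and 0.0496 over 18 libraries and 0.00061 and 0.000125 over 17. As a share of the members' own counts, Rps4l made up 0.749% to 1.30% in P7 mononucleated and 0.312% to 0.519% in adult mononucleated libraries. Rps4x made up 1.71% to 1.88% and 1.29% to 1.39% in the same libraries.

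Rpl39, a small basic X-linked protein of the exit tunnel, was also among the members that fell in both classes. Its normalised read counts were 893, 1136 and 1141 in P7 mononucleated and 408, 618 and 565 in adult mononucleated libraries, and 1179, 1129 and 906 and 514, 596 and 502 in binucleated ones. No adult value reached a P7 value. It changed by -1.01 ± 0.35 (log2, SE) and -0.99 ± 0.35 (log2, SE), with adjusted p of 0.0293 and 0.035. Rpl15 and Rpl5 completed the calls in mononucleated cells with 18 libraries, at -0.56 ± 0.20 (log2, SE) and -0.64 ± 0.24 (log2, SE) and adjusted p of 0.0291 and 0.047. Rpl5 carries 5S ribosomal RNA into the large subunit. Rps27l completed those in binucleated cells, from 3599, 3494 and 3099 to 2121, 2070 and 1838 normalised read counts, a change of -0.76 ± 0.28 (log2, SE) with an adjusted p of 0.0451.

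The other X-linked members, Rpl10 and Rpl36a, are named by the same rule. Rpl36a had 879, 925 and 744 normalised read counts in P7 binucleated and 513, 547 and 411 in adult binucleated libraries, a difference of -0.80 ± 0.34 (log2, SE) with an adjusted p of 0.0765 over 18 libraries and 0.000832 over 17. Its autosomal paralog Rpl36al had -0.32 ± 0.27 (log2, SE), with 0.37 and 0.0133. Rpl10, which completes the peptidyl transferase region, had -0.36 ± 0.27 (log2, SE), with 0.31 and 0.0158. The 4 X-linked members all fell in both classes from P7 to the adult with 17 libraries, where 27.9% and 26.2% of all genes fell. With 18 libraries only Rpl39 in both classes and Rps4x in binucleated cells were called among them.

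2 stalk genes went the other way on the authors' scaling. The stalk, built of Rplp0 with Rplp1 and Rplp2, recruits elongation factors to the ribosome. Rplp0 had normalised read counts of 9489, 9211 and 9122 in E18.5 mononucleated, 6088, 6824 and 8338 in P7 mononucleated and 8527, 11207 and 10230 in adult mononucleated libraries. In binucleated libraries it had 17944, 8742 and 8774, 7851, 7046 and 7308 and 9218, 10206 and 9454. In both classes every adult value lay above every P7 value.

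From P7 to the adult Rplp0 differed by 0.50 ± 0.21 (log2, SE) and 0.38 ± 0.21 (log2, SE) in mononucleated and binucleated cells. The adjusted p was 0.0673 and 0.173 over 18 libraries and 0.000949 and 0.00762 over 17. Rplp2 differed by 0.47 ± 0.32 (log2, SE) and 0.35 ± 0.32 (log2, SE), with 0.267 and 0.434 over 18 libraries and 0.00246 and 0.0186 over 17. These were the 2 members of 82 that rose in each class with 17 libraries, where 25.9% and 24.1% of all genes rose. They were also the 2 members whose adult values all lay above the P7 values, as they did in 29.1% and 29.6% of all genes. Rplp1 did not share the direction, at -0.18 and -0.22 with adjusted p of 0.203 and 0.121 over 17 libraries.

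The sizes and calls of these increases depended on the scaling between libraries. With quantile normalization of the same 17 libraries, the Rplp0 difference from P7 to the adult was 0.05 in mononucleated and 0.06 in binucleated cells, with adjusted p of 0.68 and 0.644. With scaling of the 17 libraries by the total of the other genes it was 0.19 and 0.16, with 0.114 and 0.199. Rplp2 was still called as higher in mononucleated cells with quantile normalization, at 0.29 with 0.0378, but not in binucleated cells, at 0.20 with 0.144. With the total of the other genes it was not called in either class, at 0.16 and 0.12 with 0.208 and 0.344. Shares of the members' own counts within a library do not depend on the scaling. They also rise for a member that stays level while most others fall. They therefore show a change relative to the other members and not an increase of Rplp0 or Rplp2 itself. Rplp0 made up 4.27% to 4.75% of the members' counts in P7 mononucleated and 7.04% to 7.09% in adult mononucleated libraries, and 4.05% to 4.70% and 6.74% to 7.18% in binucleated ones. In mononucleated libraries Rplp2 made up 1.33% to 1.45% at P7 and 2.07% to 2.19% in the adult, and Rplp1 1.39% to 1.58% and 1.44% to 1.53%.

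**Figure D3:**
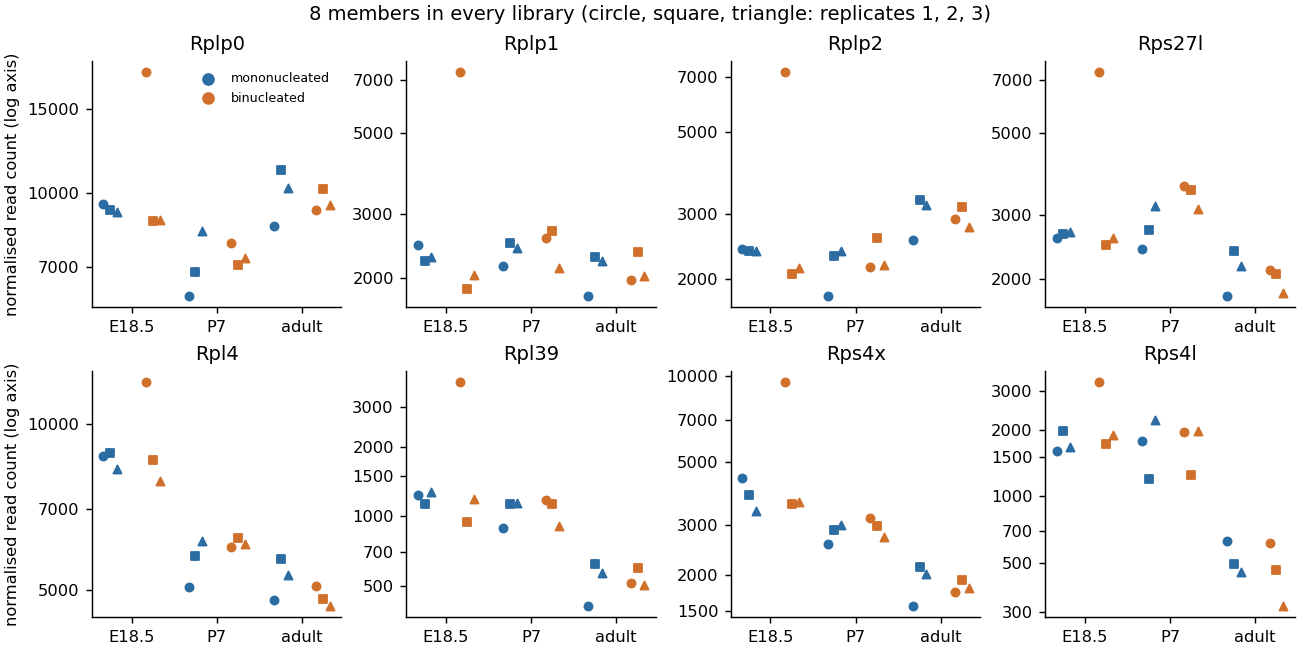
Normalised read counts of 8 members in every library, on log axes that differ between panels; colours are the classes and symbols the replicates. Rplp0 and Rplp2 are higher in the adult than at P7 on this scaling (called with 17 libraries on this scaling and not with 18; with quantile normalization of 17 libraries only Rplp2 in mononucleated cells was called), Rps4l and Rpl39 drop between those ages, Rpl4 drops before P7, and E18.5 binucleated replicate 1 is the highest value in all 8 panels.

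Over the whole interval from E18.5 to the adult, the median difference was -0.60 in mononucleated and -1.0 in binucleated cells, against -0.01 and -0.02 over all genes. With 18 libraries 30 and 66 members fell and none rose, where 27.7% and 29.4% of all genes fell and 26.2% and 28.3% rose. With 17 libraries the medians were -0.60 and -0.51, 69 and 60 members fell, where 33% and 32.4% of all genes did, and all 60 of the binucleated calls had also been made with 18. The mononucleated count was 19 without adult mononucleated replicate 1. In 70 members the adult mononucleated values lay below all E18.5 values and in 67 members the binucleated values did, as in 34.5% and 30.3% of all genes. The same 60 members fell in both classes with 17 libraries, 30 with 18. The share of all genes that fell in both classes is not given, so this overlap cannot be set against it. These comparisons share their E18.5 and adult libraries with the steps above and are not independent of them.

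By subunit, 37 of the 41 large subunit genes without the stalk and 27 of the 31 small subunit genes fell in mononucleated cells with 17 libraries, and 33 and 22 in binucleated cells. Of all genes, 33% fell in mononucleated and 32.4% in binucleated cells with 17 libraries. With 18 libraries the counts were 20 and 7 in mononucleated and 37 and 24 in binucleated cells, where 27.7% and 29.4% of all genes fell. The 7 of 31 small subunit genes were a smaller share than that of all genes. The medians of the large and small subunit genes were -0.65 and -0.57 in mononucleated, and -0.56 and -0.44 in binucleated cells with 17 libraries. Of the 7 further copies 5 fell in each class with 17 libraries.

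Rpl4, Rpl15, Rpl5, Rps3a1 and Rps4l had the smallest adjusted p in both classes with 18 libraries. Rpl15 had normalised read counts of 2145, 2269 and 2185 in E18.5 mononucleated and 1016, 1288 and 1186 in adult mononucleated libraries, a change of -0.93 ± 0.20 (log2, SE) with an adjusted p of 0.000798. In binucleated cells the change was -0.95 ± 0.12 (log2, SE) without the outlying library, with 2.98e-06. Rps3a1, a small subunit protein at the messenger exit, changed by -0.84 ± 0.21 (log2, SE) with 0.00247 and by -0.80 ± 0.11 (log2, SE) with 1.31e-05 without that library.

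Among paralogs, Rpl22l1 and Rpl22, for which it can substitute, both fell. From E18.5 to the adult Rpl22l1 went from 703, 823 and 773 to 252, 405 and 404 normalised read counts in mononucleated cells, -1.14 ± 0.32 (log2, SE) with an adjusted p of 0.00666. Rpl22 went from 1295, 1262 and 1195 to 668, 761 and 784, -0.76 ± 0.30 (log2, SE) with 0.0402. No overlap was seen between the ages for either gene, and the difference between their changes was not tested. Rps27l and Rps27 had -0.33 and -0.32, with adjusted p of 0.016 and 0.0392 over 17 libraries and 0.347 and 0.414 over 18.

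Members with other known roles followed the list. Rps6, the target of the S6 kinases, changed by -0.46 ± 0.10 (log2, SE) in mononucleated and -0.44 ± 0.11 (log2, SE) in binucleated cells with 17 libraries, with adjusted p of 0.000974 and 0.00345. Rpl13a, often used as a reference gene for quantitative PCR, changed by -0.88 ± 0.11 (log2, SE) and -0.74 ± 0.13 (log2, SE), with 5.92e-06 and 0.000117. Rpsa, which is also known as a laminin receptor, changed by -0.90 ± 0.12 (log2, SE) and -0.80 ± 0.14 (log2, SE), with 7.83e-06 and 8.09e-05. Rps24, mutated in some families with Diamond-Blackfan anaemia, changed by -0.59 ± 0.12 (log2, SE) and -0.56 ± 0.14 (log2, SE), with 0.000516 and 0.00221. In mononucleated cells with 18 libraries Rpl13a and Rpsa were called, at adjusted p of 0.0225 and 0.00838, and Rps6 and Rps24 were not, at 0.0817 and 0.101.

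At the other end, Rplp2 was the 1 member called as higher in the adult than at E18.5 with 17 libraries, by 0.32 ± 0.11 (log2, SE) in mononucleated and 0.47 ± 0.13 (log2, SE) in binucleated cells, with adjusted p of 0.0218 and 0.0041. In all, 31.8% and 30.6% of all genes rose. With 18 libraries the values were 0.32 and -0.12, with 0.421 and 0.772, so neither was called and in binucleated cells the sign differed. With quantile normalization of the 17 libraries the values were 0.07 and 0.21, with 0.616 and 0.156. With scaling of the 17 libraries by the total of the other genes they were -0.08 and 0.01, with 0.509 and 0.957, so no call held under either scaling. Rplp0, Rplp1, Rps2 and Rps29 were not called in either class with 17 libraries on the authors' scaling. Rplp0 was at 0.10 ± 0.11 (log2, SE) and 0.14 ± 0.12 (log2, SE). It was called as lower under the other scalings of the 17 libraries, at -0.49 and -0.54 with quantile normalization (adjusted p 0.000273 and 0.000331). With the total of the other genes it was at -0.30 and -0.33 (adjusted p 0.0133 and 0.0151). Rps2, among the members with the highest recovered counts, had 5340, 5293 and 5260 normalised read counts in E18.5 mononucleated and 4591, 6372 and 5734 in adult mononucleated libraries, which overlapped, at 0.06 ± 0.11 (log2, SE).

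**Figure D4:**
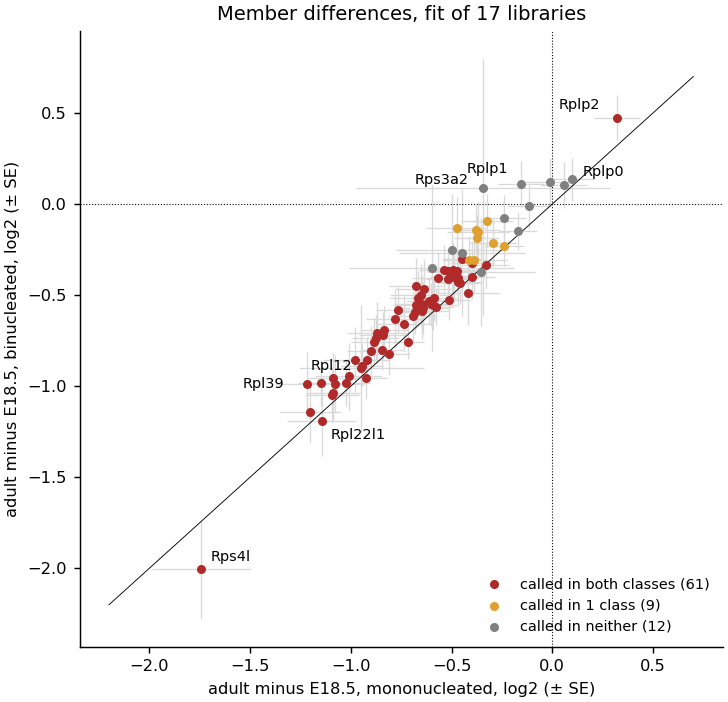
Adult minus E18.5 difference of each member in binucleated against mononucleated cells, log2, from the fit of 17 libraries; bars are standard errors and the diagonal marks equality. Of the 82 members, 61 were called in both classes, 60 of them lower and Rplp2 higher. The share of all genes called in both classes is not given. Rplp2 is not called in either class when the same libraries are scaled by the total of the other genes (-0.08 and 0.01). Rps4l lies at -1.74 and -2.0.

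**Figure D5:**
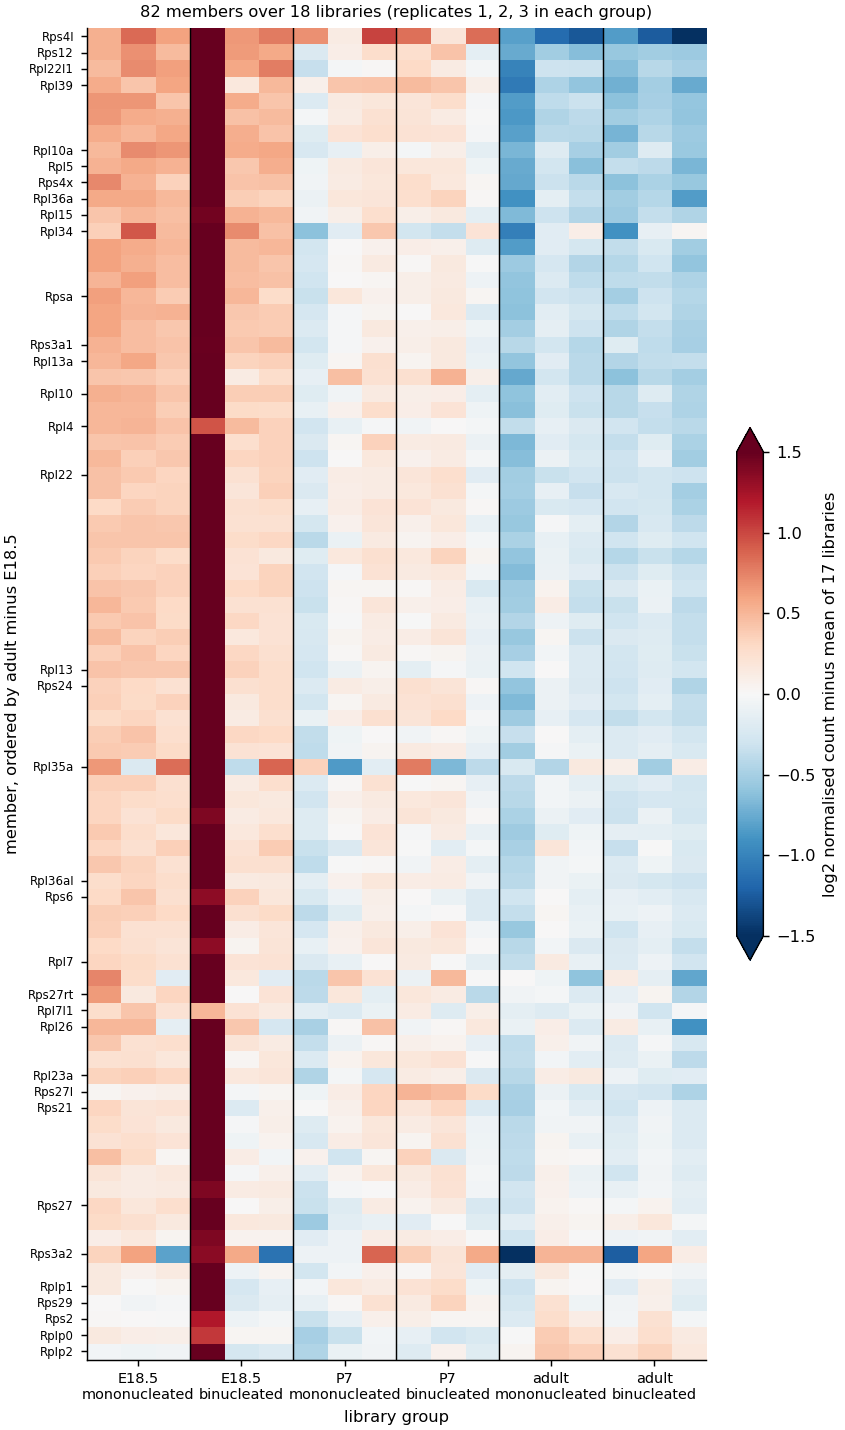
Log2 normalised read count of the 82 members (rows) in the 18 libraries (columns), each row minus its mean over the 17 libraries without E18.5 binucleated replicate 1. The colour scale ends at 1.5 in either direction, and only some of the rows are named. Most rows pass from red at E18.5 to blue in the adult, while Rplp0 and Rplp2 do the reverse between P7 and the adult on this scaling, and Rps3a2 and Rpl35a vary by replicate number.

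Other genes of the translation apparatus are given for context, with 17-library values and, in parentheses, 18-library values. From E18.5 to the adult 33% (27.7%) of all genes fell and 31.8% (26.2%) rose in mononucleated cells, and 32.4% (29.4%) fell and 30.6% (28.3%) rose in binucleated cells; the counts of each list stand beside these shares. Of 20 elongation factors and other known TOP messages, 14 (9) fell and 1 (0) rose from E18.5 to the adult in mononucleated and 12 (13) fell and 1 (0) rose in binucleated cells. With 17 libraries 70% and 60% of the list fell, above the shares of all genes. The largest of these changes was that of Eef1a1, the elongation factor that brings aminoacyl-tRNA and is replaced by Eef1a2 in mature muscle. Its normalised read counts were 21459, 18586 and 18528 in E18.5 mononucleated, 12951, 14266 and 15695 in P7 mononucleated and 678, 1282 and 638 in adult mononucleated libraries. The change from P7 was -4.12 ± 0.23 (log2, SE) with an adjusted p of 1.36e-09, larger than that of any member. Pabpc1, the poly(A)-binding protein, changed by -1.14 ± 0.28 (log2, SE) over the same step with 0.00409.

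Mitochondrial ribosomal protein genes had medians above 0. Of 76 measured, 41 (16) rose and 8 (4) fell from E18.5 to the adult in mononucleated cells, and 51 (14) rose and 3 (6) fell in binucleated cells. The shares that rose were 53.9% and 67.1% with 17 libraries, above those of all genes, and 21.1% and 18.4% with 18, below them. Their medians were 0.26 and 0.43 with 17 libraries (0.05 in binucleated cells with 18), where those of the cytosolic members were -0.60 and -0.51. Mrpl44 rose by 0.95 ± 0.15 (log2, SE) with an adjusted p of 4.78e-05 in mononucleated cells, and Mrps27 was among the few that were lower, at -0.60 ± 0.13 (log2, SE) with 0.000981.

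Of 65 assembly factors, 26 (20) fell and 6 (2) rose from E18.5 to the adult in mononucleated cells, and 20 (18) fell and 7 (5) rose in binucleated cells. With 17 libraries 40% and 30.8% of them fell, where 33% and 32.4% of all genes did, and 9.23% and 10.8% rose, below the shares of all genes. Imp4, of the small subunit processome, had -0.85 ± 0.11 (log2, SE) with 6.55e-06, and Pno1 0.51 ± 0.15 (log2, SE) with 0.00766 as adjusted p in mononucleated cells. Of 19 RNA polymerase I and rDNA factors, 4 (2) fell and 3 (1) rose in mononucleated and 2 (4) fell and 4 (3) rose in binucleated cells. Polr1e, a polymerase I subunit, had -1.41 ± 0.14 (log2, SE) with 3.02e-07. For these factors the shares in either direction lay below those of all genes. Of 9 chaperones and importers of ribosomal proteins, 1 (1) fell and 3 (3) rose in mononucleated and 1 (1) fell and 4 (4) rose in binucleated cells. The importin Ipo5 had 0.81 ± 0.14 (log2, SE) with 0.000133. Of 28 initiation factors, 7 (6) fell and 5 (5) rose in mononucleated and 5 (9) fell and 7 (5) rose in binucleated cells, with 17-library shares of 25% and 17.9% in mononucleated and 17.9% and 25% in binucleated cells that lay below those of all genes. Named from this list are the helicase Eif4a1 at -0.92 ± 0.10 (log2, SE) and its relative Eif4a2 at 1.10 ± 0.11 (log2, SE) and adjusted p of 1.49e-06 and 2.36e-07.

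Of 26 mTOR and Myc regulators, 4 (3) fell and 8 (7) rose from E18.5 to the adult in mononucleated cells, and 5 (3) fell and 8 (10) rose in binucleated cells. With 17 libraries 15.4% and 19.2% fell, below the shares of all genes, and 30.8% rose in each class, close to them. Mycn, the Myc family member of the fetal heart, had normalised read counts of 494, 694 and 437 in E18.5 mononucleated, 55.9, 63.6 and 52.5 in P7 mononucleated and 12.7, 22.6 and 12.9 in adult mononucleated libraries, which did not overlap. It changed by -3.21 ± 0.39 (log2, SE) from E18.5 to P7 with an adjusted p of 2.2e-05, and by -3.29 ± 0.39 (log2, SE) with 1.01e-05 in binucleated cells. Myc fell from 309, 436 and 643 to 185, 151 and 106 and stood at 524, 1534 and 1189 in the adult. It changed by -1.62 ± 0.52 (log2, SE) in the first step and 2.77 ± 0.52 (log2, SE) in the second, with 0.0379 and 0.000405.

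Eif4ebp1, an mTOR target that holds back cap-dependent translation, changed by -0.94 ± 0.24 (log2, SE) from P7 to the adult in mononucleated cells with 0.00457. Mtor and Larp1 were not called in any age step, at 0.15 ± 0.30 (log2, SE) and 0.61 ± 0.54 (log2, SE) from E18.5 to the adult in mononucleated cells with adjusted p of 0.691 and 0.363. Sesn1, an inhibitor of mTOR signalling, changed by 1.69 ± 0.24 (log2, SE) with 1.69e-05.

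Rpl3 and its striated muscle paralog Rpl3l, left out of the list, moved in opposite directions from P7 to the adult. In mononucleated libraries Rpl3 went from 3070, 3161 and 4042 to 894, 1118 and 1019 normalised read counts and Rpl3l from 430, 489 and 438 to 6610, 7049 and 6272. Rpl3 changed by -1.75 ± 0.17 (log2, SE) and Rpl3l by 3.88 ± 0.23 (log2, SE), with adjusted p of 6.95e-07 and 2.01e-09.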

How the data were processed

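Whole-transcriptome libraries of sorted cardiomyocytes were deposited by the authors as 1 table each of log2 values for 12048 genes, aligned with STAR to mm9 and handled with limma per the submitters' processing notes. Versions and the scaling constant are not stated in these notes. Each deposited log2 value came out as (whole count + 0.5) times a library factor, within 0.001 of a whole count for all values, which gave the recovered counts. Normalised read counts are recovered counts times that factor, divided by the factors' geometric mean. Symbols were matched through GENCODE M21 for 11927 identifiers, and 121 had none.

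Tests used limma 3.58.1 in R 4.3.3 on the log2 values: 6 group means over 18 libraries, an intensity trend, 12 residual degrees of freedom, and Benjamini-Hochberg adjustment over 12048 genes in each of 11 comparisons, with a threshold of 0.05. The same fit without E18.5 binucleated replicate 1 used 17 libraries. The procedure was tested on simulated data for binucleated against mononucleated cells at P7 over 12048 genes: it recovered 78% of 100 genes changed 2-fold and 100% of 100 changed 4-fold, with 6 false calls. A recovery of 80% had first been required at 2-fold, was not reached and was dropped. The simulated libraries shared 1 dispersion and included no outlying library, and the changed genes lay above the median level. The recovery therefore does not carry over to the fit of 18 libraries, whose errors include the spread of E18.5 binucleated replicate 1. It does not show which class differences of members could have been missed. The members and lists were chosen with earlier results of these data known. Members named are those with the smallest adjusted p (up to 5 per direction), the extremes of a comparison, the 3 highest and lowest counts and a fixed list, and up to 2 genes per direction of other lists. Libraries with the same number deviated together at P7 (r 0.182 to 0.236) and in the adult (0.261 to 0.327), and less so at E18.5 (0.0545 to 0.158).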

Additional observations from a re-analysis of the deposited data

How the results depend on the processing

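The absence of class calls held when each library was left out (0 to 0 members), and library weights gave 1 call at P7, where they called 11.6% of all genes. The median class difference at E18.5 was -0.11 without E18.5 binucleated replicate 1 and 0.66 without replicate 2 (range of the fits that leave out 1 library), and -0.080 with library weights. With quantile normalization of 17 libraries (without E18.5 binucleated replicate 1) it was -0.089, and with these 17 scaled by the total of the other genes -0.065. The median interaction from E18.5 to P7 ran from -0.57 to 0.19 in the same fits, was 0.13 with library weights, and 0.039 with 17 libraries scaled by the total of the other genes. The cause was not tested.

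Counts of called members depended on the settings. They are named here in the order P7 against E18.5, adult against P7 and adult against E18.5, each in mononucleated and binucleated cells, with the share of all genes called by the same fit in parentheses. Leaving out 1 library gave 1 to 47, 6 to 64, 1 to 32, 1 to 45, 19 to 70 and 58 to 77 calls. Without E18.5 binucleated replicate 1 the counts were 47 (32.4%), 20 (41.8%), 32 (53.8%), 45 (50.3%), 70 (64.8%) and 61 (63%). For the other fits that leave out 1 library, here and above, the shares of all genes are not given. Library weights gave 52 (43%), 39 (61.5%) and 66 (65.5%) in mononucleated cells and 46 (53.8%) for adult against P7 in binucleated cells. Quantile normalization gave 6 (21.1%), 8 (38.7%) and 54 (51%) in mononucleated cells, and 8 (33.5%) for adult against P7 in binucleated cells. Scaling by the total of the other genes gave 4 (19.4%), 61 (37.5%), 25 (45.1%), 24 (40.6%) and 69 (59%) for the first 5, and moved the median of all genes to -0.08, -0.18, -0.32, -0.25, -0.41 and -0.44. Fits of only the groups compared gave 48 (32.2%), 0 (17.2%), 20 (49.6%), 48 (51.1%), 66 (60.8%) and 23 (42%). Adult against P7 in binucleated cells gave 1 call with voom weights (35.5%) and 2 without the intensity trend (36.4%). Both scalings of 17 libraries were added after seeing the data. Quantile normalization then gave 56 (35.3%), 34 (43.5%), 44 (53.4%), 54 (47.9%), 74 (62.8%) and 68 (60.7%), and the total of the other genes 63 (33.7%), 51 (45.2%), 67 (58.5%), 68 (54%), 80 (69.6%) and 78 (68.2%).

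With the replicate number as a block, the 6 counts were 2 (18.2%), 27 (34.6%), 3 (40.6%), 2 (36.1%), 28 (52.7%) and 65 (57%), and class comparisons and interactions gave 0. A block of age and replicate, added after seeing the data, also left 0 class calls. For the 55 age differences of named members that were called with 18 libraries, 1466 of 1595 values kept the direction and the call, 129 lost the call and 0 reversed; differences not called with 18 libraries, such as those of Rplp0 and Rplp2, are not in this count. Rps27rt and Rps3a2 had the lowest counts, and 3 libraries a group limit all tests.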

Other observations

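A few members varied with the replicate number. In Rps3a2, Rpl35a and Rpl34, the mononucleated and binucleated libraries of the same age and number deviated in the same direction from the other members in 9 of 9 pairs. The SD of these deviations was 0.65, 0.49 and 0.31 on the log2 scale. These genes were picked after their values were seen. Rpl35a had 1097, 602 and 1251 normalised read counts in E18.5 mononucleated and 2895, 538 and 1278 in E18.5 binucleated libraries, and 889, 387 and 627 and 1200, 436 and 533 at P7. At both ages the second library was the lowest of its group in each class. Rps3a2 had 48.5, 263 and 262 in adult mononucleated and 78.3, 278 and 200 in adult binucleated libraries, with the first the lowest in both.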
